A study of Mus musculus with 8 samples.

Results

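The contactin and contactin-associated protein genes were examined in isolated mouse gonadotropes, the pituitary cells that make luteinizing hormone and follicle-stimulating hormone. The group was taken by gene symbol and holds 10 of the 55523 entries of the count table, namely *Cntn1* to *Cntn6* and *Cntnap1* to *Cntnap4*. The genes were chosen by family name, with their counts in these samples and an earlier comparison of the sexes known, so their values and calls are given as a description. Gonadotropes were sorted by EGFP fluorescence out of the pituitaries of Ad4BP-BAC-EGFP mice, in which a bacterial artificial chromosome carrying the *Nr5a1* (Ad4BP) gene region drives EGFP. There were 4 samples from females and 4 from males, all 8 carried the transgene, and age, strain and the number of animals per sample were not given in the sources used here. The comparison of the sexes used the 4 female samples and male replicates 2 to 4, because the study set male replicate 1 aside for an expression pattern unlike that of the other 3 males. Values of male replicate 1, where given, are shown apart, and fits or means that include it say so.

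Contactins are immunoglobulin-superfamily adhesion proteins held at the cell surface by a glycolipid anchor. Contactin-associated proteins (CNTNAPs, also called Casprs) cross the membrane, have an extracellular part like that of neurexins and a short tail that binds protein 4.1 scaffolds. In neurons the pair of contactin-1 and CNTNAP1 forms the paranodal junction beside the node of Ranvier, and contactin-2 with CNTNAP2 holds potassium channels next to it. Both families are best known from the nervous system.

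The total count was between 18774578 and 31302588 per sample. Levels are in CPM, the counts per 1000000 counts of a library whose size was adjusted by edgeR's TMM factor (trimmed mean of M values), and 3 counts, taken as the floor, correspond to between 0.0921 and 0.146 CPM. This floor covers counting error only. The gonadotrope markers *Lhb*, *Fshb*, *Cga*, *Gnrhr*, *Nr5a1* and *Foxl2* were above the floor in every sample. They summed to between 21596 and 34941 CPM in females and between 67977 and 75754 CPM among the 3 males compared, with a sum of 28522 CPM for male replicate 1. Markers of the other pituitary hormone cells were also present, and *Gh* was at least 12394 CPM in every sample. *Nr5a1*, the gene behind the reporter, was between 862 and 1266 CPM in females, between 584 and 801 CPM among the 3 males compared and only 16.3 CPM in male replicate 1. In male replicate 1 the nuclear transcript *Malat1* took 11.1% of the counts, against 0.706% to 1.59% in the other samples. Fewer cells of a type and less RNA per cell cannot be told apart in such samples.

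*Cntn1* and *Cntnap2* carried most of the family's RNA. To compare genes, CPM was divided by the length of the exons in kilobases. Over the 7 samples compared, *Cntn1* had a mean of 25.4 ± 12.2 CPM per kilobase (SD, n = 7), which placed it at the 93.8 percentile among 31480 genes that had a count and a length. *Cntnap2* followed with 5.90 ± 1.39 CPM per kilobase, at the 78.4 percentile. In the 4 females and in male replicates 2 and 4, these 2 genes together made up between 90.9% and 95.7% of the summed level per kilobase of the family. In male replicates 1 and 3, where *Cntn1* was low, they made up 52.0% and 67.3%.

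The next members were *Cntnap1*, with 0.993 ± 0.325 CPM per kilobase at the 52.1 percentile, and *Cntnap4*, with 0.931 ± 1.17 CPM per kilobase. The mean of *Cntnap4* pools sexes that differed widely and describes neither, since it was 0.0220 CPM per kilobase in females, below *Cntn2* at 0.0633, and 2.14 CPM per kilobase in males, above *Cntnap1* at 0.731. *Cntn5* (0.285 ± 0.183), *Cntn3* (0.241 ± 0.116) and *Cntn4* (0.111 ± 0.0610 CPM per kilobase) came after them, and *Cntn2* (0.0432 ± 0.0401) and *Cntnap3* (0.0138 ± 0.0247) were at the lower edge of detection. *Cntn6* was listed at 0. Of the neighbours in this order, *Cntnap1* and *Cntnap4*, *Cntnap4* and *Cntn5*, *Cntn5* and *Cntn3*, *Cntn2* and *Cntnap3*, and *Cntnap3* and *Cntn6* differed by less than the larger of their SDs. With the longest transcript as the length, *Cntnap4* ranked above *Cntnap1*, and the other ranks were as before.

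**Figure D1:**
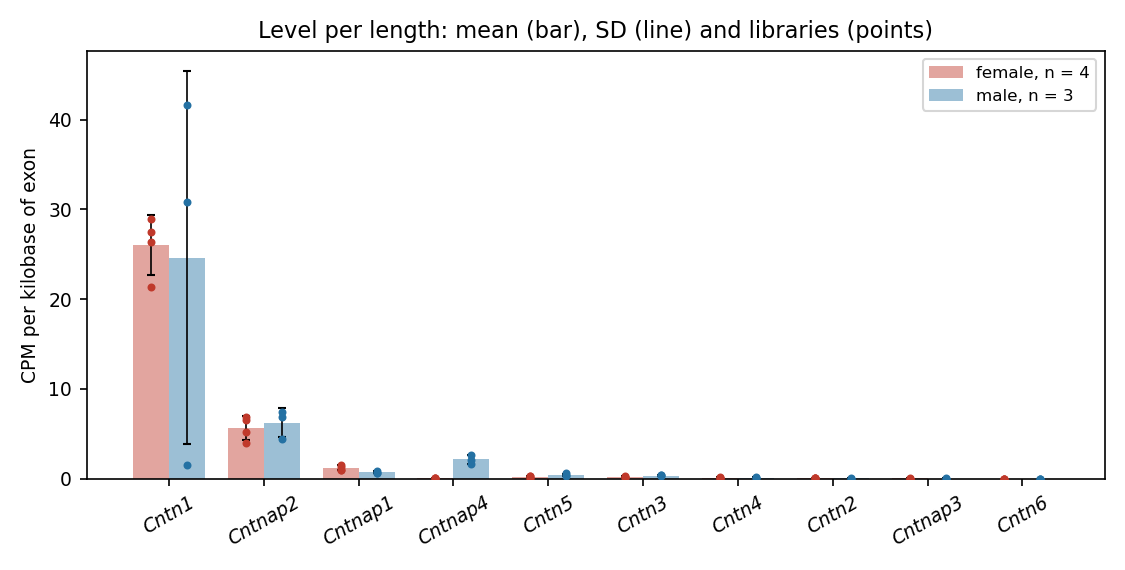
Level of each gene in CPM per kilobase of exon, with bars for the mean, lines for the SD and points for the 4 female and 3 male samples. *Cntn1* and *Cntnap2* stand above the rest, and 1 of the 3 male points of *Cntn1* lies far below the other 2.

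*Cntn1* (ENSMUSG00000055022.14) encodes contactin-1, which acts as a partner of CNTNAP1 and of other adhesion proteins. On mm10 (GRCm38) it spans 92051165 to 92341967 of chromosome 15, plus strand. The females had 273, 260, 201 and 249 CPM in replicates 1 to 4. In male replicates 2, 3 and 4 it was 393, 13.9 and 290 CPM, and in male replicate 1 it was 4.15 CPM. The females thus lay close together, whereas male replicates 1 and 3 lay far below every other sample, with 95 and 368 counts against at least 5322.

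For *Cntn1* the log2 fold change, male over female, was −0.11 with a standard error of 0.85 (edgeR quasi-likelihood, adjusted p = 0.965). Without male replicate 3 it was 0.45 with a standard error of 0.20 (edgeR quasi-likelihood, adjusted p = 0.359), so a single library set both the sign and most of the error. In the plot of each library, male replicates 1 and 3 are the 2 low symbols of *Cntn1*.

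A low count of this kind was not particular to *Cntn1*. In each library, between 38 and 58 of the 1515 to 1590 entries with a median of at least 100 CPM in the other 7 libraries lay under 0.1 of that median. *Cntn1* was among them in male replicates 1 and 3, at 0.0160 and 0.0535 of the median of the others. Genes that every cell uses were among them as well, as seen after their values were examined. *Ldha*, which encodes lactate dehydrogenase A, was between 2.44 and 6.90 CPM in female replicates 1 and 2 and male replicates 2 and 3, and between 105 and 145 CPM in the other samples. *Rhoa*, a small GTPase of the cytoskeleton, was 29.5 and 21.5 CPM in male replicates 2 and 3 and at least 355 CPM elsewhere. All 55523 entries carry a gene symbol, and how reads of assembled loci without one were counted is not given in the sources used here. This bears on what low counts mean, among them the 0 counts of *Cntn6* and *Nrxn2* and the female counts of *Cntnap4*, which is an assembled entry. Whether it applies to *Cntn1* or *Cntnap4* was not tested.

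**Figure D2:**
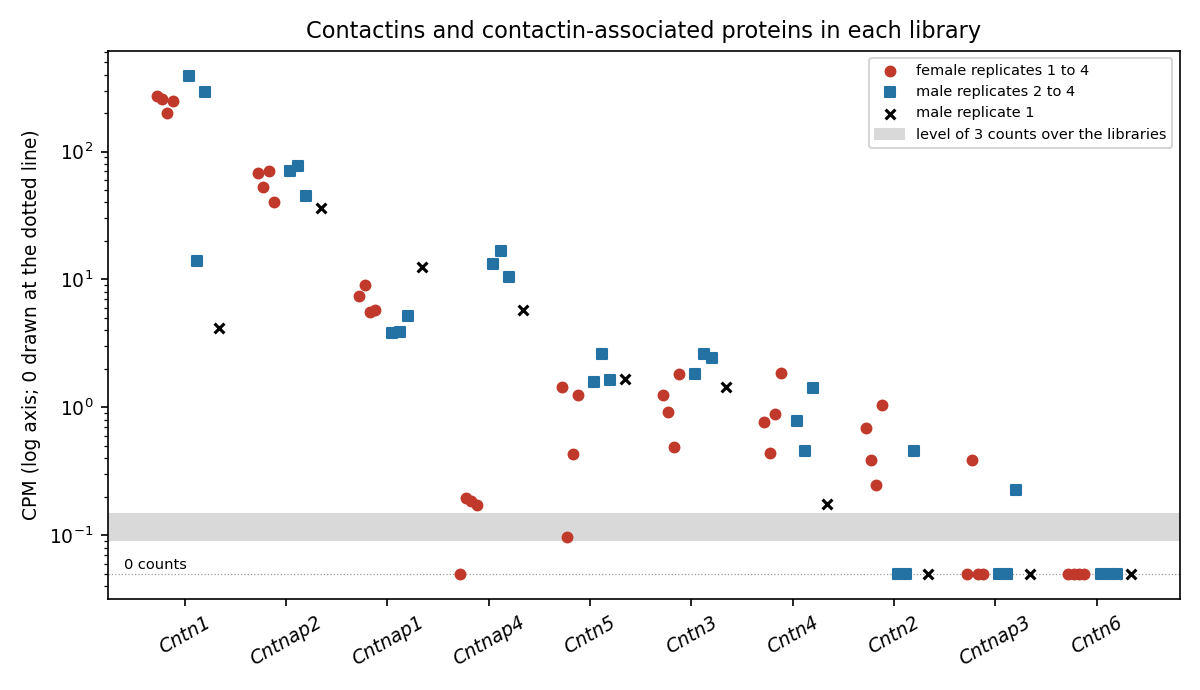
CPM of the 10 genes in each library on a log axis, with circles for females, squares for male replicates 2 to 4 and crosses for male replicate 1. Samples without a count are drawn on the dotted line, and the grey band spans 0.0921 to 0.146 CPM, the level of 3 counts. *Cntnap4* separates the sexes, and *Cntn1* is low in male replicates 1 and 3.

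The 3 genes most like *Cntn1* over the 7 samples, by Pearson's r of log2(CPM + 1), were *Galnt2* (r = 0.995), *Syngr2* (r = 0.994) and *Sacm1l* (r = 0.991), which encode a glycosyltransferase, a vesicle membrane protein and a phosphoinositide phosphatase. Each was low in male replicate 3, at 0.906, 7.85 and 0 CPM, as *Cntn1* was. That library weighs heavily in the r values, which were not computed without it. In male replicate 1 they were 132, 57.2 and 97.1 CPM, so they did not share the low value of *Cntn1* there. The points share their libraries and scaling, and no p is given.

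*Cntnap2* (ENSMUSG00000039419.17) encodes CNTNAP2, the juxtaparanodal partner of contactin-2. Its gene on the plus strand of chromosome 6, from 45059357 to 47304213, spans 2244857 bp, the longest of the family. It was 67.5, 53.3, 70.1 and 40.2 CPM in female replicates 1 to 4 and 70.9, 76.5 and 44.7 CPM among the 3 males compared. Male replicate 1 was lowest with 36.1 CPM. The sexes overlapped, and the highest of the 7 samples was 1.90 times the lowest. Its log2 fold change was 0.12 with a standard error of 0.26 (edgeR quasi-likelihood, adjusted p = 0.862), and its sign turned to −0.094 with library size alone as the scaling. *Cntnap2* was above *Cntn1* per kilobase only in male replicates 1 and 3, where *Cntn1* was 0.125 and 0.197 times *Cntnap2*. In the other 6 samples *Cntn1* was between 3.12 and 7.05 times *Cntnap2*.

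The RefSeq table (GRCm38.p6) holds 3 promoters of *Cntn1* and 2 of *Cntnap2*, the genes that carry most of the family's RNA. The first of each gene and the second of *Cntn1*, which holds a motif match, are shown, and the remaining window of each gene held no match. Each runs from 250 bases before to 50 bases after an annotated start, both strands were searched, and matches are in capitals. The first motif was AAGGTCA, which NR5A1 binds. The others were TATAAA, which is a TATA box, and GGGCGG, which is a GC box. No match in these windows overlapped another.
*Cntn1*, first start, chr15:92050915-92051214, plus strand: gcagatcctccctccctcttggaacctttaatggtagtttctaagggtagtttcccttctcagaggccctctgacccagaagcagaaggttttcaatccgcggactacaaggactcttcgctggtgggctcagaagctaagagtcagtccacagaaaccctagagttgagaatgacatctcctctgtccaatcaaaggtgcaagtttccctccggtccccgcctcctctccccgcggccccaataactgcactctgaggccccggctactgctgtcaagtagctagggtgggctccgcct
*Cntn1*, second start, chr15:92127878-92128177, plus strand: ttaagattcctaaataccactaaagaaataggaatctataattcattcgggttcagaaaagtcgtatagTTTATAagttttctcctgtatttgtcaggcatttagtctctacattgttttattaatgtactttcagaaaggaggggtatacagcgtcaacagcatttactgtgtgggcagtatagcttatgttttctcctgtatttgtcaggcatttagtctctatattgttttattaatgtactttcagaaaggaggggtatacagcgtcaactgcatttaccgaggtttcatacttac
*Cntnap2*, first start, chr6:45059811-45060110, plus strand: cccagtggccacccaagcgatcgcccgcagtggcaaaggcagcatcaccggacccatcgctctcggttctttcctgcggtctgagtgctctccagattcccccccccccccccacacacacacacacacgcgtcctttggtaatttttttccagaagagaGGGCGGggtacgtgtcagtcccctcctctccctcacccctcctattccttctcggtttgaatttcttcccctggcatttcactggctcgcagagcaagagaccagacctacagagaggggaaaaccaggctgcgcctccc
The first *Cntn1* window holds none of the 3 motifs and has a GC content of 55.3%. The second holds TATAAA on the opposite strand, beginning 181 bases before the start, and has a GC content of 34.7%. The first *Cntnap2* window holds 1 GC box on the same strand, beginning 90 bases before the start, and has a GC content of 59.7%.

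Of the 10 genes, 8 had 1 or more promoters in the RefSeq table, 13 in all, and *Cntnap1* and *Cntnap4* had none. AAGGTCA was in 0 of these 13 promoters, against 4.72% of all 32851 promoters of the same length. TATAAA was in 2 of the 13 and in 13.6% of all. GGGCGG was in 3 of the 13 and in 35.7% of all, and 2 of the 3 are overlapping windows of *Cntn5*. A match is only an occurrence of these letters.

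*Cntnap4* was the member with an edgeR adjusted p under 0.05 between the sexes. *Cntnap4* (ENSMUSG00000031772.17) encodes CNTNAP4, a neurexin-like protein known from inhibitory interneurons and dopaminergic neurons, and lies on the plus strand of chromosome 8, from 112570043 to 112882717. It had 0, 4, 6 and 4 counts in female replicates 1 to 4, or 0, 0.195, 0.184 and 0.173 CPM. In male replicates 2, 3 and 4 it had 334, 443 and 231 counts, or 13.2, 16.7 and 10.5 CPM. Male replicate 1 had 133 counts, or 5.81 CPM. All 4 male libraries were thus above all 4 female libraries, and the lowest of male replicates 2 to 4 was 53.8 times the highest female.

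The mean of *Cntnap4* was 13.5 ± 3.13 CPM (SD, n = 3) in males and 0.138 ± 0.0925 CPM (SD, n = 4) in females. The log2 fold change was 6.51 with a standard error of 0.61 (edgeR quasi-likelihood, adjusted p = 0.00938). With male replicate 1 included it was 6.32 (edgeR quasi-likelihood, adjusted p = 0.0120). Leaving out any 1 of the 7 samples gave 6.14 to 6.72, with edgeR adjusted p between 0.00252 and 0.0327. The female values rest on 14 counts in all, so the size of the ratio is less certain than its direction.

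Summed markers of some cell types were without overlap between the sexes as well, in both directions. The lists were not tested, and among all single genes tested 22.3% were without overlap. Of 13 marker lists, the summed level was higher in all 3 males compared than in all females for 4 (gonadotrope, somatotrope, thyrotrope and stromal) and lower for 1, and the sexes overlapped in 8. The mean of the summed gonadotrope markers in males was 2.49 times that in females. This sum was carried by *Cga* and *Fshb*, whereas *Nr5a1* and *Foxl2* were lower in the 3 males compared without overlap, *Foxl2* at 37.1 to 64.6 CPM against 78.7 to 108 CPM in females. Male replicate 1, at 99.2 CPM of *Foxl2*, lay inside the female range. The 2 thyrotrope markers summed to between 238 and 345 CPM among the 3 males compared and between 21.4 and 85.2 CPM in females, and the 3 somatotrope markers to between 65451 and 142447 CPM and between 12414 and 57901 CPM. In male replicate 1 these sums were 28522, 83.6 and 30178 CPM, each inside the female range, while its *Cntnap4* was 29.8 times the highest female. The stromal and pericyte markers summed to between 251 and 497 CPM among the males compared, to between 213 and 235 CPM in females and to 164 CPM in male replicate 1. The higher sum was carried by *Rgs5*, at 147 to 399 CPM in the males compared against 85.4 to 123 CPM in females. Male replicate 1 had 61.8 CPM of *Rgs5*. *Col1a1* was lower in the males compared without overlap, at 2.95 to 4.27 CPM against 5.37 to 13.1 CPM in females. *Col1a2*, *Dcn*, *Pdgfra* and *Pdgfrb* overlapped between the sexes. The stem and folliculostellate markers were the list that was lower, with 232 to 293 CPM among the males compared, 339 to 584 CPM in females and 443 CPM in male replicate 1. The 6 neuronal markers summed to between 28.4 and 34.3 CPM among the 3 males compared, between 22.1 and 31.8 CPM in females and to 16.0 CPM in male replicate 1, and 3 of the 6 were above the floor in every library. They did not move together. *Gad1*, which marks inhibitory neurons, was at most 0.244 CPM in females, between 0.630 and 1.91 CPM among the 3 males compared, with 0.917 CPM for male replicate 1. *Slc17a6*, of excitatory neurons, was also higher in the 3 males compared, at 23.6 to 25.8 CPM against 11.6 to 20.1 CPM in females, but male replicate 1 was below every female at 6.29 CPM. In contrast *Rbfox3*, a general neuronal marker, was 2.84 to 3.0 CPM in the 3 males compared and 3.50 to 9.38 CPM in females, and *Slc17a7*, also of excitatory neurons, was 0.158 to 1.23 CPM in those males and 1.32 to 3.55 CPM in females. Male replicate 1 lay inside both of these female ranges, at 5.68 CPM of *Rbfox3* and 2.14 CPM of *Slc17a7*. The part of these cells in the *Cntnap4* values was not tested.

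**Figure D3:**
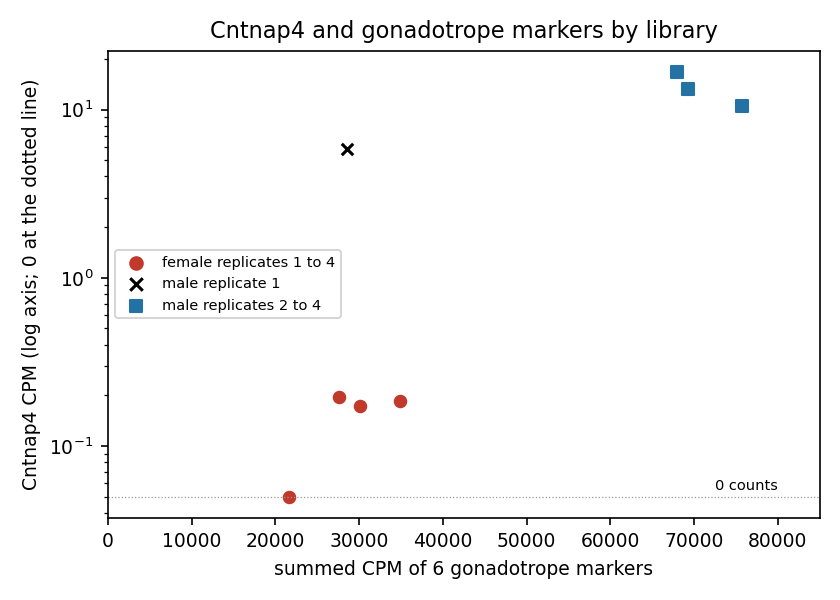
*Cntnap4* CPM on a log axis against the summed CPM of 6 gonadotrope markers in each library, with 0 counts on the dotted line. Male replicate 1, the cross, has a marker sum of 28522 CPM, inside the female range, and 5.81 CPM of *Cntnap4*, above every female.

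The genes most like *Cntnap4* by the same measure were *Uty* (r = 0.999), *Grem1* (r = 0.998) and *Eif2s3y* (r = 0.997). *Uty* and *Eif2s3y* are Y-linked genes, and *Grem1* encodes an antagonist of bone morphogenetic proteins. The samples form 2 clusters by sex, and these r values only say that each gene was near 0 in females and well above it in males. In male replicate 1, *Uty* and *Eif2s3y* were above male replicates 2 to 4, at 24.3 and 35.5 CPM, whereas *Grem1* was below them, at 88.9 CPM against 264 to 346 CPM. *Cntnap4* was below them there as well.

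*Cntnap1* (ENSMUSG00000017167.6), the paranodal CNTNAP, lies on chromosome 11 from 101170523 to 101190724 and has the shortest gene of the family, of 20202 bp. It was 7.48, 9.12, 5.55 and 5.79 CPM in female replicates 1 to 4 and 3.82, 3.89 and 5.18 CPM among the 3 males compared. Male replicate 1 was the highest of all samples with 12.5 CPM. The females were above the 3 males without overlap, but below the male sample set aside. Its log2 fold change was −0.73 with a standard error of 0.26 (edgeR quasi-likelihood, adjusted p = 0.184), and with all 8 samples it was −0.14 (edgeR quasi-likelihood, adjusted p = 0.956). The markers of myelinating glia, cells whose contact with axons depends on CNTNAP1, summed to between 99.9 and 144 CPM in females, between 85.3 and 111 CPM among the 3 males compared, with a sum of 118 CPM for male replicate 1. Of these 8 markers, 4 were above the floor in every library and *Mog* was at 0 in all of them.

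The remaining contactins were low. *Cntn3*, *Cntn4* and *Cntn6* lie side by side on chromosome 6 of mm10, between 102162655 and 106699310, where *Chl1* is the only other protein-coding gene of GENCODE M21. *Cntn3* (102162655 to 102573101, minus strand) was 1.24, 0.927, 0.491 and 1.82 CPM in female replicates 1 to 4, 1.81, 2.60 and 2.45 CPM among the 3 males compared, with 1.44 CPM for male replicate 1. The sexes overlapped by a single sample, and the log2 fold change was 1.0 with a standard error of 0.48 (edgeR quasi-likelihood, adjusted p = 0.308). *Cntn4* (105677660 to 106699310, plus strand), a partner of amyloid precursor protein in axon guidance, had between 9 and 43 counts in females, between 12 and 31 among the 3 males compared and 4 in male replicate 1. Its log2 fold change was −0.19 with a standard error of 0.65 (edgeR quasi-likelihood, adjusted p = 0.913).

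*Cntn6* (104492790 to 104863406, plus strand) had 0 counts in all 8 libraries, which allows at most 0.0921 to 0.146 CPM by counting error alone. *Chl1*, an L1-family adhesion gene of the same interval, was between 21.8 and 65.2 CPM in females and between 15.9 and 28.6 CPM among the 3 males compared. Male replicate 1 had 28.9 CPM. *Chl1* was thus far above its contactin neighbours in every library.

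*Cntn5* (ENSMUSG00000039488.15) lies on the minus strand of chromosome 9, from 9660891 to 10904775. It was 1.45, 0.0976, 0.430 and 1.25 CPM in female replicates 1 to 4, 1.58, 2.60 and 1.63 CPM among the 3 males compared, with 1.66 CPM for male replicate 1. The males were above the females without overlap, but only narrowly. For *Cntn5* the log2 fold change was 1.23 with a standard error of 0.78 (edgeR quasi-likelihood, adjusted p = 0.454).

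*Cntn2* (ENSMUSG00000053024.14), the juxtaparanodal contactin and partner of CNTNAP2, lies on the minus strand of chromosome 1, from 132509427 to 132543256. It had 16, 8, 8 and 24 counts in female replicates 1 to 4, 0 counts in male replicates 1, 2 and 3 and 10 counts in male replicate 4. The log2 fold change was −1.98 with a standard error of 1.45 (edgeR quasi-likelihood, adjusted p = 0.520). Without male replicate 2 or 3 it was −1.39 and −1.38. Without male replicate 4 it was −6.92 (edgeR quasi-likelihood, adjusted p = 0.124), but the males left then had 0 counts, so this is not a measured ratio. *Cntnap3* had 8 counts in female replicate 2, 5 in male replicate 4 and 0 in the other 6 samples. *Cntnap2* was thus present at a level at which its usual partner was barely counted.

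Of the 10 genes, 8 passed the filter on low counts of edgeR, and *Cntnap3* and *Cntn6* did not. Of the 8, 1 had an adjusted p under 0.05, *Cntnap4*, which was higher in males. Of all 20152 genes tested, 2.34% were called in either direction, with 0.983% higher in males and 1.35% higher in females. DESeq2 also called 1 member, *Cntnap4*, against 9.93% of the 22679 genes it tested. An unadjusted p under 0.05 was reached by 2 of the 8, *Cntnap4* and *Cntnap1*, against 19.9% of all genes tested. The fitted log2 fold change was above 0 in 4 and below 0 in 4, with a median of 0.00 against −0.03 over all genes tested. In 3 of the 8 the samples of the sexes did not overlap, with *Cntnap4* and *Cntn5* higher in males and *Cntnap1* higher in females. Such a separation was seen in 22.3% of all genes tested, 11.5% with males higher and 10.8% with females higher.

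**Figure D4:**
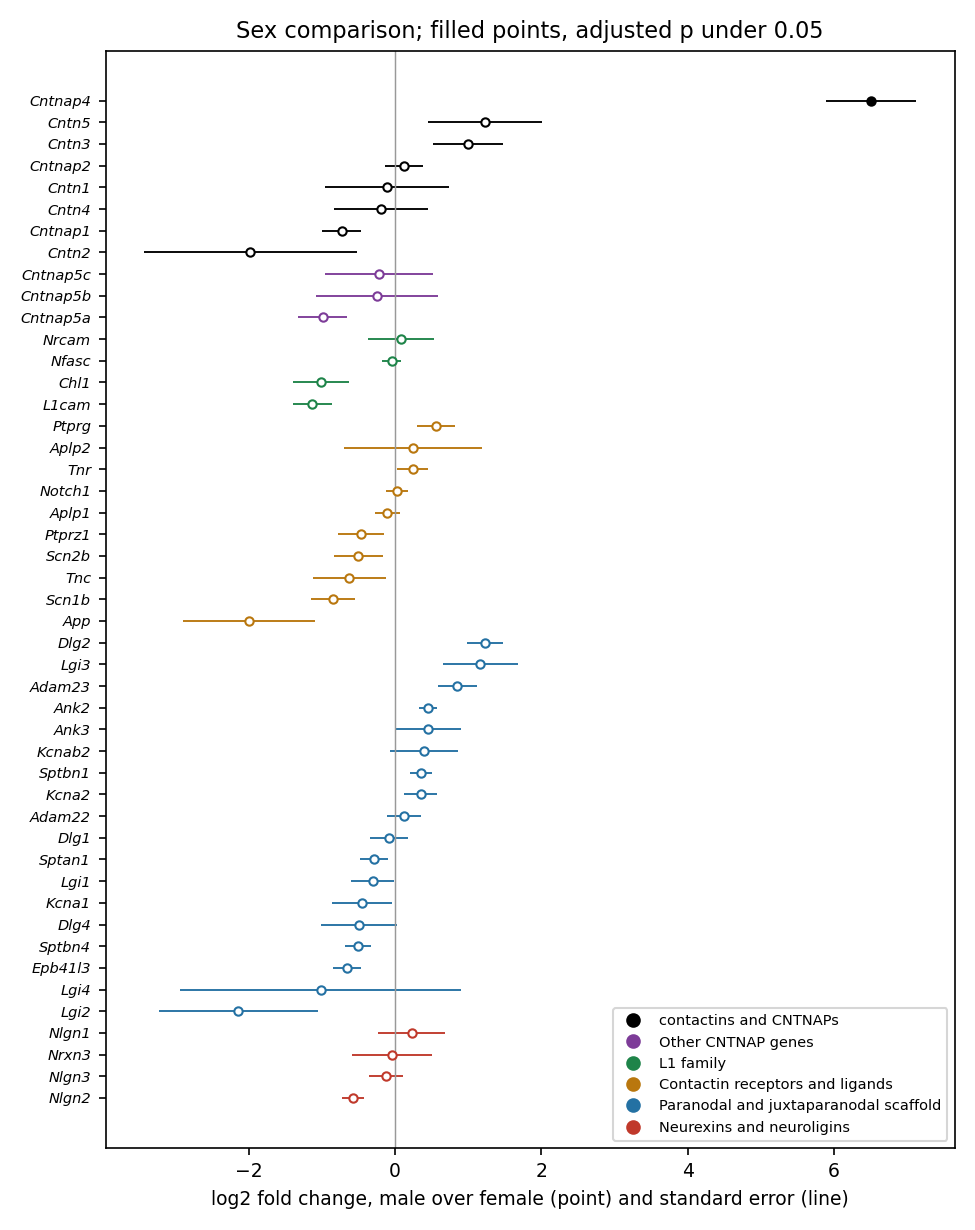
Log2 fold change of males over females with its standard error for the 8 tested contactins and CNTNAPs and for tested genes of the lists around them. *Cntnap4*, at 6.51, is the only filled point, which marks an adjusted p under 0.05, and the next highest member, *Cntn5*, is at 1.23.

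The genes that work with these families were read in lists that were chosen with earlier results known. Of 41 such genes, 40 were tested and 0 were called by edgeR, against 2.34% of all genes tested, while DESeq2 called 5, against 9.93%. An unadjusted p under 0.05 was reached by 11 of the 40, against 19.9% of all genes tested. Their median log2 fold change was −0.12, with 16 above 0 and 24 below. *Nrxn2*, a neurexin gene, was listed at 0 in every library and was not tested. The 5 called by DESeq2, named after their values were seen, were *L1cam* (log2 fold change −1.11), *Nlgn2* (−0.56) and *Epb41l3* (−0.64), lower in males, and *Dlg2* (1.25) and *Ank2* (0.47), higher in males, with DESeq2 adjusted p between 0.000619 and 0.0401. Male replicate 1 lay inside the female range for *L1cam* (6.24 CPM), *Epb41l3* (44.9 CPM) and *Dlg2* (11.3 CPM) and above it for *Ank2* (55.0 CPM). For *Nlgn2* it was 88.9 CPM, above every female (46.1 to 57.7 CPM), and with all 8 samples the log2 fold change of *Nlgn2* was −0.061.

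Among the other CNTNAP genes, *Cntnap5a* was the highest per kilobase, at 0.401 CPM per kilobase. It was 5.52, 6.39, 7.15 and 3.11 CPM in female replicates 1 to 4, 3.15, 3.25 and 2.13 CPM among the 3 males compared, with 5.41 CPM for male replicate 1. Female replicate 4 lay within the range of these males and the other females above it, and the log2 fold change was −0.99 with a standard error of 0.33 (edgeR quasi-likelihood, adjusted p = 0.165). *Cntnap5b* and *Cntnap5c* had means of 0.910 and 0.885 CPM over the 7 samples. Transcripts of *Cntnap5a*, *Cntnap5b* and *Cntnap5c* share 104, 93 and 90 of their 50-base stretches with other genes of the family, so a few reads could match several of these genes. The 10 genes of the group share none with each other or with these 3, and none of their loci in the count table carries a second symbol.

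Among the L1 family, adhesion proteins that bind contactins, *Nfasc* was highest with 12.6 CPM per kilobase. It encodes neurofascin, whose glial form binds the pair of contactin-1 and CNTNAP1, and its log2 fold change was −0.05 (standard error 0.13). *Aplp1*, an amyloid precursor-like gene, led the contactin receptors and ligands with 76.2 CPM per kilobase and a log2 fold change of −0.11 (standard error 0.17). *Sptbn1*, a spectrin, led the scaffold genes with 28.0 CPM per kilobase and a log2 fold change of 0.35 (standard error 0.15). *Cntn1*, at 25.4 CPM per kilobase, had a mean near that of *Sptbn1* and above that of *Nfasc*. In male replicates 1 and 3 it was below both, at 0.440 and 1.47 CPM per kilobase against at least 11.2 CPM per kilobase of *Nfasc*.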

How the data were processed

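RNA of 8 sorted gonadotrope samples was analysed. The authors deposited counts per gene without normalization, in 1 table. Per the labels and the methods of the study, adapters were trimmed with cutadapt, reads were aligned to mm10 (GRCm38) with STAR and counted with featureCounts, with default parameters. The annotation was not given in the sources used here, and 28933 of the 55523 entries carry MSTRG names, the form that StringTie gives to assembled loci. Of the 10 members, 6 carry such a name.

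Counts were scaled with TMM factors in edgeR (version 4.0.16, R 4.3.3), and exon lengths and positions are from GENCODE M21. The sexes were tested in edgeR (glmQLFit and glmQLFTest, the quasi-likelihood test) after filterByExpr, with Benjamini-Hochberg adjustment over all genes tested and a threshold of 0.05. The standard error is the absolute log2 fold change divided by the square root of F. The members and lists were chosen with earlier results of these data known. The named genes are the 10 members, the genes called in each list, the highest gene per kilobase of each list (1 gene is not reported here) and the 3 genes most like the highest member and each called member. Apart from the cell type markers, other genes named beside a result (*Malat1*, *Ldha*, *Rhoa*, *Chl1*, *App*, *Aplp2*, *Nrxn2*, *Cntnap5b*, *Cntnap5c* and the genes called by DESeq2 alone) fall outside this rule and were chosen after their values were seen. Nothing in the labels says that replicates are separate animals, so p-values measure the spread between samples. On simulated counts with a log2 change of 3, the test recovered 66.0% of 194 changed genes among 19315, and 1.54% of its calls were false. These counts were drawn independently from a negative binomial distribution, with a spread estimated from the same samples. The shares therefore hold for the simulation and are not error rates of the measured counts. Alternatives were DESeq2 (version 1.42.0), upper-quartile scaling, library size alone, other filters, all 8 samples, a replicate block, robust dispersion, counts summed by symbol or locus, and leaving out each replicate.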

Additional observations from a re-analysis of the deposited data

Results flagged for a closer look

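Within a sex, 18 groups of 4 samples were examined for a sample far from the other 3, by its gap to the nearest sample as a share of the range. There were 6 such samples. For continuous values chance gives about 1 in 20 groups, but this does not apply to most of the 6, which set a few counts against 0. *Cntnap1* reached 12.5 CPM in male replicate 1, and the other males had 3.82 to 5.18 CPM. *Cntn5* reached 2.60 CPM in male replicate 3, and the other males had 1.58 to 1.66 CPM. The other 4 concern genes at or near the floor. *Cntnap4* had no count in female replicate 1 (0 CPM), and the other females had 0.173 to 0.195 CPM. *Cntnap3* was 0.390 CPM in female replicate 2 and 0.227 CPM in male replicate 4, and *Cntn2* was 0.454 CPM in male replicate 4, each against 0 CPM in the other samples of that sex. Their causes were not tested.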

How the results depend on the processing

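The 471 genes called between the sexes became 2253 with DESeq2, 808 with library size alone, 177 with no filter beyond 1 count, 67 with all 8 samples and 0 with the replicate block (at an unadjusted p under 0.05, 2954), and between 88 and 171 with a replicate left out, where fewer samples entered. The 1 member called, *Cntnap4*, was called in 15 of 16 alternatives that tested it, with adjusted p from 1.21e-29 with DESeq2 to 0.145 with the replicate block, where its log2 fold change was 6.12 and the number of members called was 0. With at least 10 counts in every sample *Cntnap4* was not tested, and that number was 0. The labels do not say whether same-numbered samples were paired. Deviations of same-numbered samples correlated at −0.0267 to −0.00163, and those of differently numbered samples at −0.031 to 0.0336. These values showed no sign of a pairing but cannot exclude it. Of the other pathway genes, 0 were called in the main fit, 5 with DESeq2, 2 with library size alone (*L1cam* and *Nlgn2*), 1 with at least 10 counts in every sample and 1 with counts summed by locus (*Dlg2* in both), and between 0 and 1 with a replicate left out (*Dlg2* without female replicate 4). The sign turned for *Cntn1* without male replicate 3 (0.45), for *Cntn4* without female replicate 4 (0.33) or male replicate 3 (0.13), and for *Cntnap2* with library size alone (−0.094), with all 8 samples (−0.026) and without female replicate 4 (−0.0040) or male replicate 3 (−0.024). With a replicate left out, *Cntn1* ranged from −0.70 to 0.45, *Cntn4* from −0.71 to 0.33 and *Cntnap2* from −0.024 to 0.31. None of these was called, and the cause was not tested. With library size alone the median over all genes tested was −0.24 (log2). With all 4 males the male mean of *Cntnap1* was 6.34 CPM. With the longest transcript as the length, *Cntn1* was 42.3 and *Cntn4* 0.179 CPM per kilobase. Values of *Cntn2*, *Cntnap3* and female *Cntnap4* are limited by few counts, and *Cntn6* had 0 counts. Whether depth set these counts was not tested.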

Other observations

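Wide spread between libraries was also seen in genes around the family. Among genes of the group and its lists with a mean of at least 10 CPM over the 7 samples, those that ranged over at least 10-fold included *Cntn1*, *App* and *Aplp2*. *App*, the amyloid precursor gene, was 928 and 631 CPM in female replicates 1 and 2, 734 CPM in male replicate 1, but only 72.2 to 117 CPM in the other 5 samples. *Aplp2* was 6.89 CPM in female replicate 1, but 244 to 315 CPM in the other 7.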
